A study of Homo sapiens with 8 samples.

Results

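Open chromatin at the loci of SPI1, IRF4 and IRF8 was described from ATAC-seq peak lists, in which cuts by the Tn5 transposase mark accessible DNA. A peak was a member if it overlapped, in hg19, 47.36 to 47.43 Mb of chromosome 11 (SPI1), 0.36 to 0.46 Mb of chromosome 6 (IRF4) or 85.90 to 86.05 Mb of chromosome 16 (IRF8). These windows held 184 of the 532743 peaks in the 8 lists. Peaks of any list that shared at least 1 bp were merged, which gave 10 regions at SPI1, 10 at IRF4 and 19 at IRF8, 39 of 133028 regions in all. The lists came from 697 and KOPN-8, established B cell precursor leukaemia lines. In each line 2 libraries came from cells with an empty sgRNA vector, wild type for SETD2 (the controls), and 2 from cells of an sgRNA clone described as a SETD2 heterozygous knockout, BM_B in 697 and BA in KOPN-8. All groups were cultured cells with no further treatment given in the labels. Each knockout arm was 1 clone set against a vector population, so the edit and the descent from 1 cell cannot be told apart. The replicates are named biological in the labels, but separate cultures are not stated, and p-values measure only the spread between these libraries. Lists held between 57154 and 76495 peaks, and read depth is unknown. The B cell identity of the lines was not checked against marker genes, because no hg19 gene models were used here.

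SPI1 encodes PU.1, an ETS-family factor that macrophages, neutrophils and B cells all depend on, at a high level in myeloid cells and a lower level in B cells. IRF4 and IRF8 are interferon regulatory factors that bind DNA weakly alone and are recruited by PU.1, or by its relative SPIB, to composite ETS-IRF elements. In B cell precursors IRF4 and IRF8 act redundantly in the step from the large to the small pre-B cell and in light-chain gene activation, and IRF8 is also needed for monocytes and dendritic cells. SPI1 is known to be controlled by its promoter together with an element further upstream.

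The RefSeq promoter table (GRCh38.p14) held starts for IRF4 and IRF8, that is for 2 of the 3 genes. The 250 bases before the single listed IRF4 start (chr6:391502-391751, plus strand) and before the first of 2 listed IRF8 starts (chr16:85902580-85902829, plus strand) are printed as the regulatory sequence at these genes that could be read. Their places relative to the hg19 regions were not determined. Neither listed IRF8 start is thus known to be the IRF8 start placed below by general knowledge. Capitals mark matches to any of 4 motifs on either strand, GAGGAA (the core of a PU.1 box), an ETS-IRF composite (GGAA and GAAA with 2 bases between them), the core of an interferon response element (2 copies of GAAA with 2 bases between them) and CANNTG (an E-box, the same on both strands).
IRF4: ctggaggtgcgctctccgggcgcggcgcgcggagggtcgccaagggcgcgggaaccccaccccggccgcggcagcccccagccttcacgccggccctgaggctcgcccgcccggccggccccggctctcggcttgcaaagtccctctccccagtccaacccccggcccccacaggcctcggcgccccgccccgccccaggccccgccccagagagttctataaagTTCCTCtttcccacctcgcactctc
IRF8: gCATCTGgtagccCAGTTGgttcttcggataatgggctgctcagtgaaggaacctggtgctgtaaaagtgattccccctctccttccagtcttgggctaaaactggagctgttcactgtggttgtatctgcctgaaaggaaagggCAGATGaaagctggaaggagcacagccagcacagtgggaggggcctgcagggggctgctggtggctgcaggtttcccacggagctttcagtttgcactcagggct
The IRF4 stretch is rich in G and C, at 76% against a median of 58% over 35116 listed promoters, and holds 1 PU.1 box core on the opposite strand, beginning 25 bases before the start. GAGGAA occurs in 23.6% of all promoters of this length. The IRF8 stretch holds 3 E-boxes, a motif found in 61.8% of promoters, and no match to the other motifs. The ETS-IRF composite and the interferon response core, found in 2.41% and 3.02% of promoters, matched neither stretch.

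The number of peaks per library differed between the loci in how it followed line and arm. At SPI1 the 697 controls had 9 and 10 peaks and the 697 clone 8 and 9, while the KOPN-8 controls had 5 and 7 and the KOPN-8 clone 5 and 6. Every 697 library thus had more peaks at SPI1 than any KOPN-8 library. At IRF4 there were 6 and 7 peaks in 697 controls, 7 and 8 in 697 clone libraries, 9 and 10 in the KOPN-8 controls and 8 and 6 in the KOPN-8 clone, so the lines overlapped. At IRF8 there were 2 and 4 in 697 controls, 5 and 9 in 697 clone libraries, 8 and 6 in the KOPN-8 controls and 15 in each library of the KOPN-8 clone. In both lines the libraries of the clone lay above the controls at IRF8. For scale, the genome was tiled in windows as wide as the IRF8 window, and those with a peak in any list were kept (18021). Of these, 33.4% and 54.4% held fewer peaks than IRF8 in 697 controls, 71.2% and 88.0% in 697 clone libraries, 84.9% and 77.3% in the KOPN-8 controls and 98.1% and 98.3% in the KOPN-8 clone. For windows as wide as those of SPI1 and IRF4 the share was from 88.2% to 99.6% and from 87.5% to 97.5% over the 8 libraries.

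**Figure D1:**
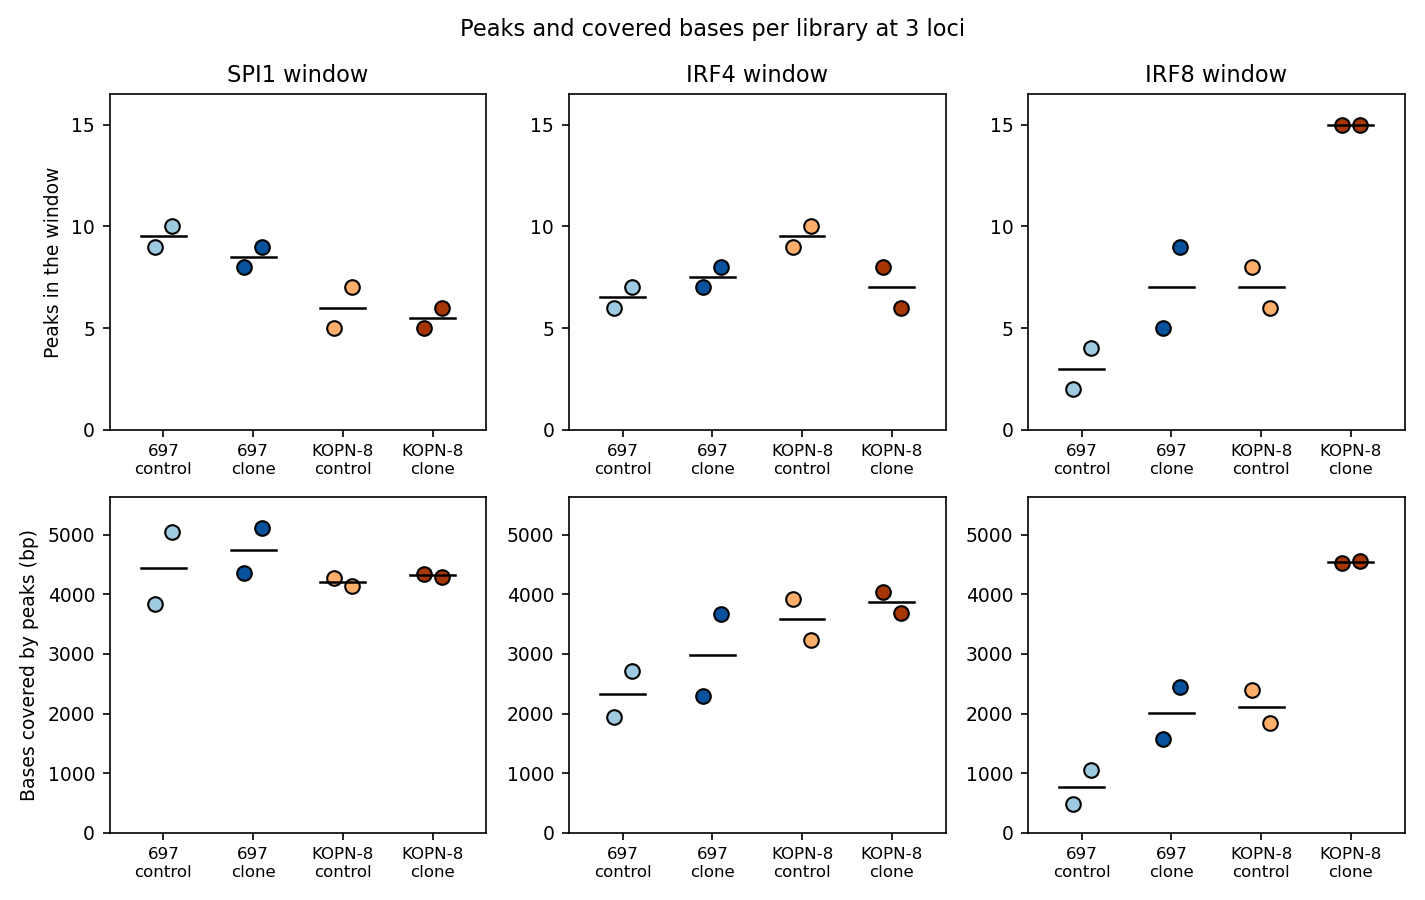
Number of peaks (top) and bases covered by peaks in bp (bottom) in the SPI1, IRF4 and IRF8 windows, by group. Each point is 1 library and each line is the mean of 2. At IRF8 the KOPN-8 clone stands at 15 peaks in both libraries and the 697 controls at 2 and 4, while at SPI1 the lines separate in peak number and overlap in covered bases.

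The SPI1 locus showed the same main open regions in both lines, with 3 further regions of its 10 called only in 697 and 0 only in KOPN-8. Over all regions, 32.2% were called in at least 1 library of 697 and none of KOPN-8, which is near 3 of 10, and 28.3% the reverse. At SPI1, 4 of the 10 regions were called in all 8 libraries, against 20.4% of all regions. The first lay from 47399433 to 47400520 and, by general knowledge of hg19 that was not checked against an annotation here, holds the SPI1 start. Its strongest peak stood at percentiles 49.2 and 60.4 of the list in 697 controls, 73.2 and 76.0 in 697 clone libraries, 83.2 and 86.0 in the KOPN-8 controls and 88.8 and 85.8 in the KOPN-8 clone. A percentile is the share of a list's peaks with a value at or below that of the peak, so it ranks a peak within its own library and is not a level of accessibility. All 4 KOPN-8 percentiles exceeded all 4 of 697, a pattern seen in 13.3% of the 27107 regions called in all 8 libraries. The authors' fold over background at this region was 5.89 and 6.51 in 697 controls, 8.66 and 9.14 in 697 clone libraries, 10.1 and 11.1 in the KOPN-8 controls and 12.1 and 11.2 in the KOPN-8 clone.

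The second shared SPI1 region, from 47416153 to 47417117, lay 16.7 kb from the first between midpoints, on the side that is upstream for SPI1, which is transcribed towards lower coordinates. The known upstream regulatory element lies on this side, and whether it is this region was not tested. Its percentiles ran from 58.2 (control 2) to 78.4 (clone 2) in 697 and from 59.3 (control 2) to 64.8 (clone 2) in KOPN-8. Here the lines overlapped, unlike at the region of the start. The third shared region, from 47421369 to 47422753, was the widest of the locus at 1385 bp, with percentiles between 44.4 and 76.1. The fourth, from 47429405 to 47430465, was the strongest in every library, at percentiles from 89.1 to 93.6. It reaches past the edge of the window towards SLC39A13, a zinc transporter gene that RefSeq lists next to SPI1 on that side, and which of these genes it belongs to was not tested.

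Regions that separated the lines at SPI1 lay on both sides of the start, with peaks of 697 on the downstream side and a stronger peak of KOPN-8 on the upstream side. The region from 47370500 to 47370747 was called in all 4 libraries of 697, at percentiles 26.8 and 59.2 for the controls and 53.5 and 59.4 for the clone, and in no library of KOPN-8. The region from 47381044 to 47381653 followed the same pattern, at 36.3 and 61.4 in 697 controls and 56.0 and 64.5 in the clone. A further region, from 47395502 to 47395782, stood at 53.2 and 37.2 in 697 controls and 34.4 and 57.6 in the clone and was called in KOPN-8 only by clone library 2, at percentile 2.71. In the opposite direction, the region from 47414621 to 47415328 stood at 68.1 and 58.2 in the KOPN-8 controls and at 53.9 and 49.8 in the KOPN-8 clone. In 697 it was called by replicate 2 of each arm alone, at 6.97 and 1.81, and those are the longer lists of that line. Its peaks were 616 to 703 bp wide in KOPN-8 and 242 and 209 bp in 697. The remaining 2 regions of the locus, starting at 47382552 and 47399000, were called in 2 and 3 libraries at percentiles of at most 22.7.

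Peaks at SPI1 numbered 9 ± 0.816 (SD, n = 4) in 697 and 5.75 ± 0.957 in KOPN-8. The difference of -3.25 was larger than the spread within either line (exact permutation of libraries between lines, two-sided p = 0.0286, the smallest that 4 against 4 allows, adjusted p = 0.0857 over the 3 loci), and after adjustment it did not pass 0.05. In the strongest 50% of each list it was -0.75 (exact permutation, p = 0.514, adjusted p = 0.514). Covered bases were 4589 ± 605 and 4264 ± 86.6 bp, a difference of -325 bp that lay within the spread of 697 (exact permutation, p = 0.314). KOPN-8 had fewer peaks, with median widths of 724 to 913 bp in its libraries against 281 to 618.5 bp in those of 697. The region from 47370500, called only in 697, had peaks of 206 to 237 bp, and that from 47381044, also called only in 697, had wider peaks of 279 to 590 bp. In the 4 regions called in all 8 libraries the widest peaks overlapped between the lines. At the region from 47429405 they were 720 to 1052 bp in 697 and 778 to 913 bp in KOPN-8. Between arms the peaks at SPI1 differed by -0.75 on average over the lines (exact permutation within lines, n = 2 per group, p = 0.444, adjusted p = 0.667).

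**Figure D2:**
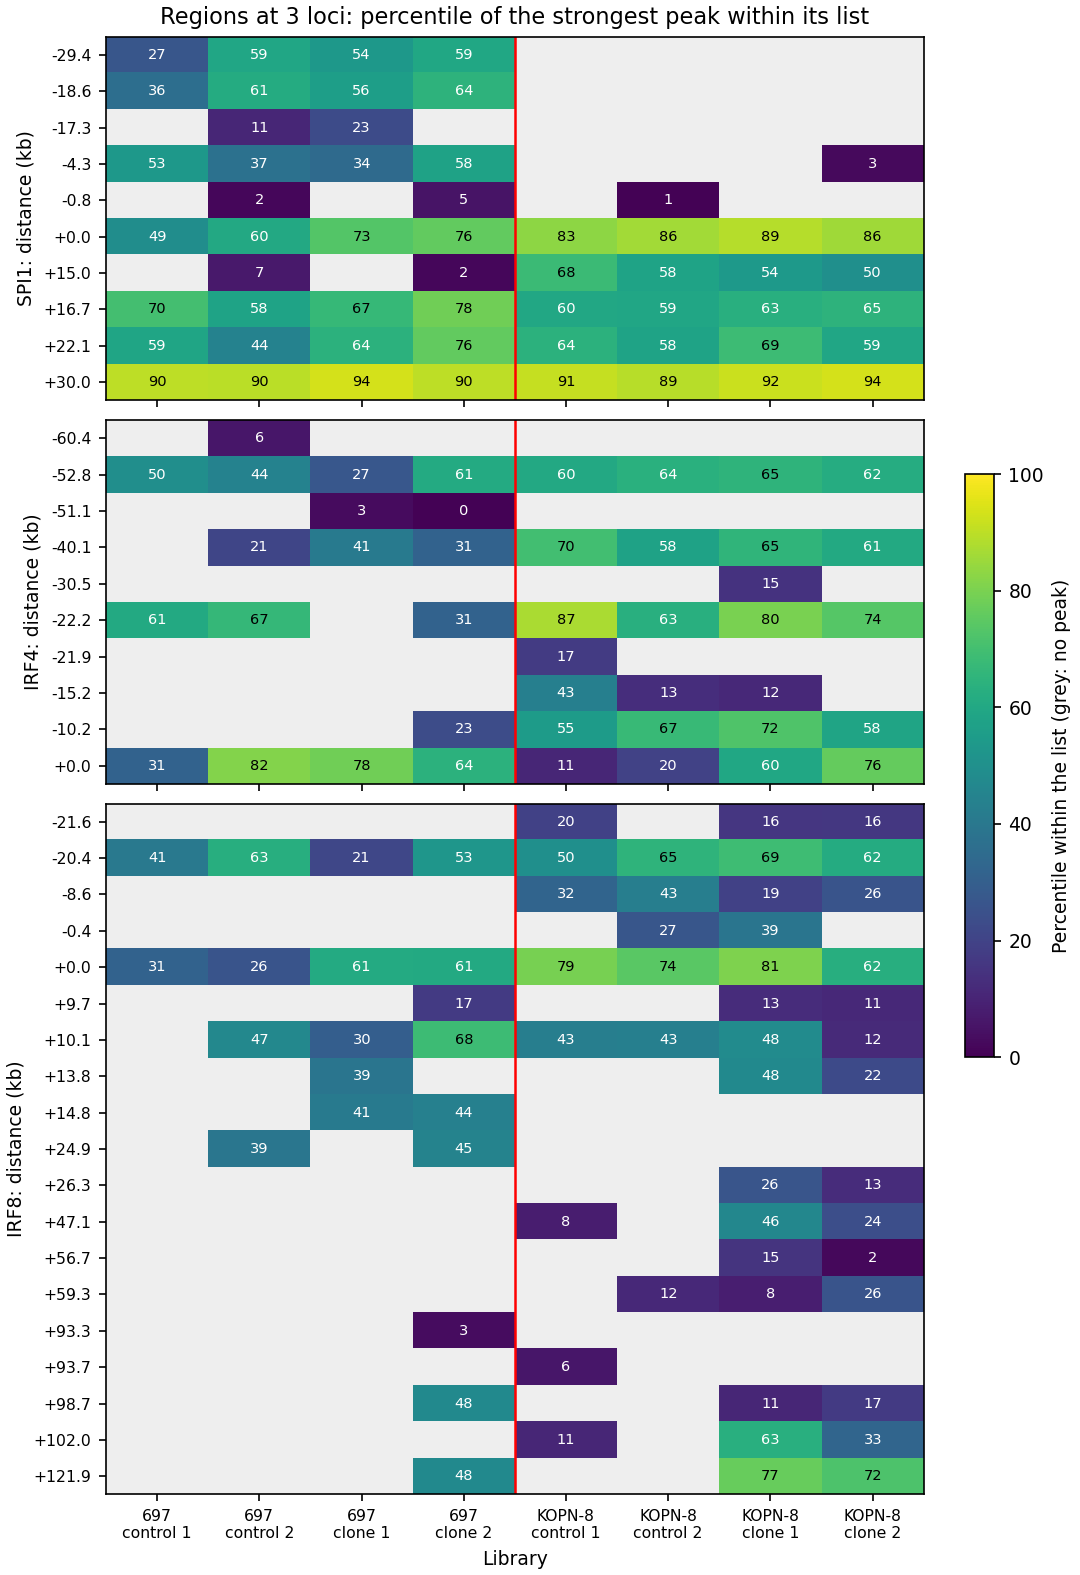
Every region of the SPI1, IRF4 and IRF8 windows (rows, in order of position) in each library (columns). The colour and number give the percentile of the strongest peak within its list and grey marks no peak. Rows are labelled by distance in kb between midpoints from the strongest region that lies inside the window and was called in all 8 libraries, and the red line divides 697 from KOPN-8. The 3 top rows of SPI1 are filled only in 697, and the lower part of IRF8 is filled mostly in the KOPN-8 clone.

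At IRF4, 2 of 10 regions were called in all 8 libraries, against 20.4% of all regions. Of the regions between these 2, those starting at 404769 and 434580 ranked higher in every KOPN-8 library than in any 697 library that called them. The first shared region, from 391120 to 393620, was a cluster of 2 to 5 peaks per library over 2501 bp. Again by general knowledge of hg19 not checked here, it holds the IRF4 start. Its strongest peak stood at 49.5 and 44.5 in 697 controls, 27.0 and 61.2 in 697 clone libraries, 60.4 and 63.5 in the KOPN-8 controls and 65.2 and 61.9 in the KOPN-8 clone. The ranges of the lines met at 697 clone library 2. The other shared region, from 444935 to 445432, stood at 31.4 and 81.6 in 697 controls and 78.4 and 64.4 in 697 clone libraries. In KOPN-8 it stood at 10.6 and 19.8 for the controls and 59.5 and 76.2 for the clone, with folds of 3.57 and 4.25 against 6.83 and 9.11. Both clone percentiles exceeded both control percentiles there, as in 20.6% of regions called in all 8 libraries. The 697 controls alone span nearly the same range. Of the 8 such regions in the 3 windows, 3 had this KOPN-8 order and 0 the reverse, which 23.6% of all regions called in all 8 libraries had. The others with the clone above the controls lay at SPI1, starting at 47416153 and 47429405.

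Of the regions between these, that from 422777 to 423121 stood at percentiles between 62.9 (control 2) and 87.3 (control 1) in KOPN-8, with both libraries of its clone between these. In 697 it stood at 60.7 and 66.7 in the controls, was not called in clone library 1 and stood at 31.3 in clone library 2. The region from 404769 to 405421 stood at 69.8 and 57.7 in the KOPN-8 controls and 65.4 and 60.7 in the KOPN-8 clone. In 697 it was not called in control 1, stood at 20.8 in control 2 and at 41.4 and 31.3 in the clone. The region from 434580 to 435334 was called in all 4 KOPN-8 libraries, at 54.9 and 67.3 for the controls and 72.3 and 58.5 for the clone, and in 697 only by clone library 2, at 23.3. At 422777, unlike at 404769 and 434580, KOPN-8 control 2 lay below 697 control 2. A weak region from 429794 to 430073 was called in 3 KOPN-8 libraries, at 43.2, 13.0 and 11.7, and in no 697 library.

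Peaks at IRF4 numbered 7 ± 0.816 in 697 and 8.25 ± 1.71 in KOPN-8 (SD, n = 4), a difference of 1.25 (exact permutation, p = 0.343, adjusted p = 0.343) that was 3 in the strongest 50% of each list (p = 0.0286, adjusted p = 0.0857). Covered bases were 2656 ± 747 and 3720 ± 362 bp, with a difference of 1065 bp (exact permutation, p = 0.0571, adjusted p = 0.129). Between arms the peaks differed by -0.75 (exact permutation within lines, n = 2 per group, p = 0.667, adjusted p = 0.667). That sign rests on how the cluster at the start was split. Counted as merged regions, the arms differed by 0.25, with 3 and 5 regions in 697 controls, 4 and 6 in 697 clone libraries, 7 and 6 in the KOPN-8 controls and 7 and 5 in the KOPN-8 clone.

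At IRF8 the clones had more open regions than the controls, most clearly in KOPN-8. At this locus 2 of 19 regions were called in all 8 libraries, against 20.4% of all regions. The region from 85922370 to 85922794 stood at 31.4 and 25.9 in 697 controls, 61.2 and 60.9 in 697 clone libraries, 79.4 and 74.5 in the KOPN-8 controls and 80.8 and 62.5 in the KOPN-8 clone. All KOPN-8 percentiles were above all 697 percentiles here as well. Within 697 both clone libraries were above both controls, as in 23.8% of regions called in all 8. Of the 8 such regions in the 3 windows, 4 had this 697 order and 0 the reverse, which 14.2% of all regions called in all 8 libraries had. The others with the clone above the controls lay at SPI1, starting at 47399433, 47421369 and 47429405. The region from 85901976 to 85902452 stood between 21.4 and 62.6 in 697 and between 49.9 and 68.9 in KOPN-8. Next to these, the region from 85932539 to 85932886, which by general knowledge of hg19 not checked here holds the IRF8 start, was called in 7 libraries. It was missing in 697 control 1 and stood at 46.6 in control 2, at 68.5 in 697 clone 2 and lower in 697 clone 1, at 42.7 and 43.3 in the KOPN-8 controls and 48.3 and 11.8 in the KOPN-8 clone. It ranked below the region at 85922370, 10.1 kb before it, in 5 of these 7 libraries. The region from 85913796 to 85914157 was the 1 region of all 3 windows called in all 4 KOPN-8 libraries and in no 697 library, at 32.1 and 42.9 for the controls and 19.3 and 25.9 for the clone.

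When the 4 lists of KOPN-8 were merged, the IRF8 window held 16 regions, of which 6 were called in both clone libraries and neither control, and 0 were lost in the same sense. Over all regions of KOPN-8, 3.61% were gained and 3.81% lost, and on chromosome 16 alone 4.08% were gained and 2.37% lost. The SPI1 and IRF4 windows, with 7 and 9 regions, held 0 gained and 0 lost, so the gained regions were 6 of 32 in the 3 windows. The strongest lay from 86044252 to 86044777, at percentiles 76.9 and 72.0 with folds of 9.23 and 8.43. The others were weaker. The region from 85936283 to 85936555 stood at 47.6 and 22.4, that from 85948628 to 85949045 at 26.5 and 12.6, and that from 86021193 to 86021408 at 10.6 and 17.0. The region from 85979125 to 85979442 stood at 15.1 and 2.0 and that from 85932129 to 85932524, just before the region of the start, at 12.6 and 11.4.

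In 697 the merged lists gave 10 regions at IRF8, 8 at IRF4 and 10 at SPI1, with 2 of 28 gained and 0 lost, against 4.33% gained and 1.83% lost over all regions of that line and 5.56% gained on chromosome 16 alone. The gained regions were 1 at IRF8, from 85937146 to 85937557 at percentiles 41.4 and 43.6, and 1 at IRF4, from 393939 to 394217 at only 3.12 and 0.41. With so few regions, a share of 2 in 28 cannot be set apart from the background. The regions gained at IRF8 were not the same in both lines, since that from 85937146 was not called in KOPN-8. Yet 4 of the 6 regions gained in the KOPN-8 clone were also called by 1 library of the 697 clone and by no 697 control. They start, in the merge of all 8 lists, at 85932129, 86021180 and 86044252, with 697 clone library 2 at 17.1, 47.6 and 47.6, and at 85936282, with 697 clone library 1 at 38.7. This count and those that follow were made after the values were seen. The list of 697 clone library 2 is the longest of the 8. Regions called in at least 3 clone libraries and no control made up 0.373% of all 133028 regions. At IRF8 4 of the 19 were of this kind, namely the regions just listed, against 0 of 10 at SPI1 and 0 of 10 at IRF4. Calls by clone libraries of both lines and no control made up 0.862% of all regions, and at IRF8 they were the same 4 of the 19. For at least 2 clone libraries and no control the share was 3.97%, with 7 of 19 at IRF8, 1 of 10 at IRF4 and 0 of 10 at SPI1. The 7 include the same 4, so these counts overlap and are not separate results. The opposite pattern, at least 3 controls and no clone, made up 0.200% of all regions and 0 of the 39.

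**Figure D3:**
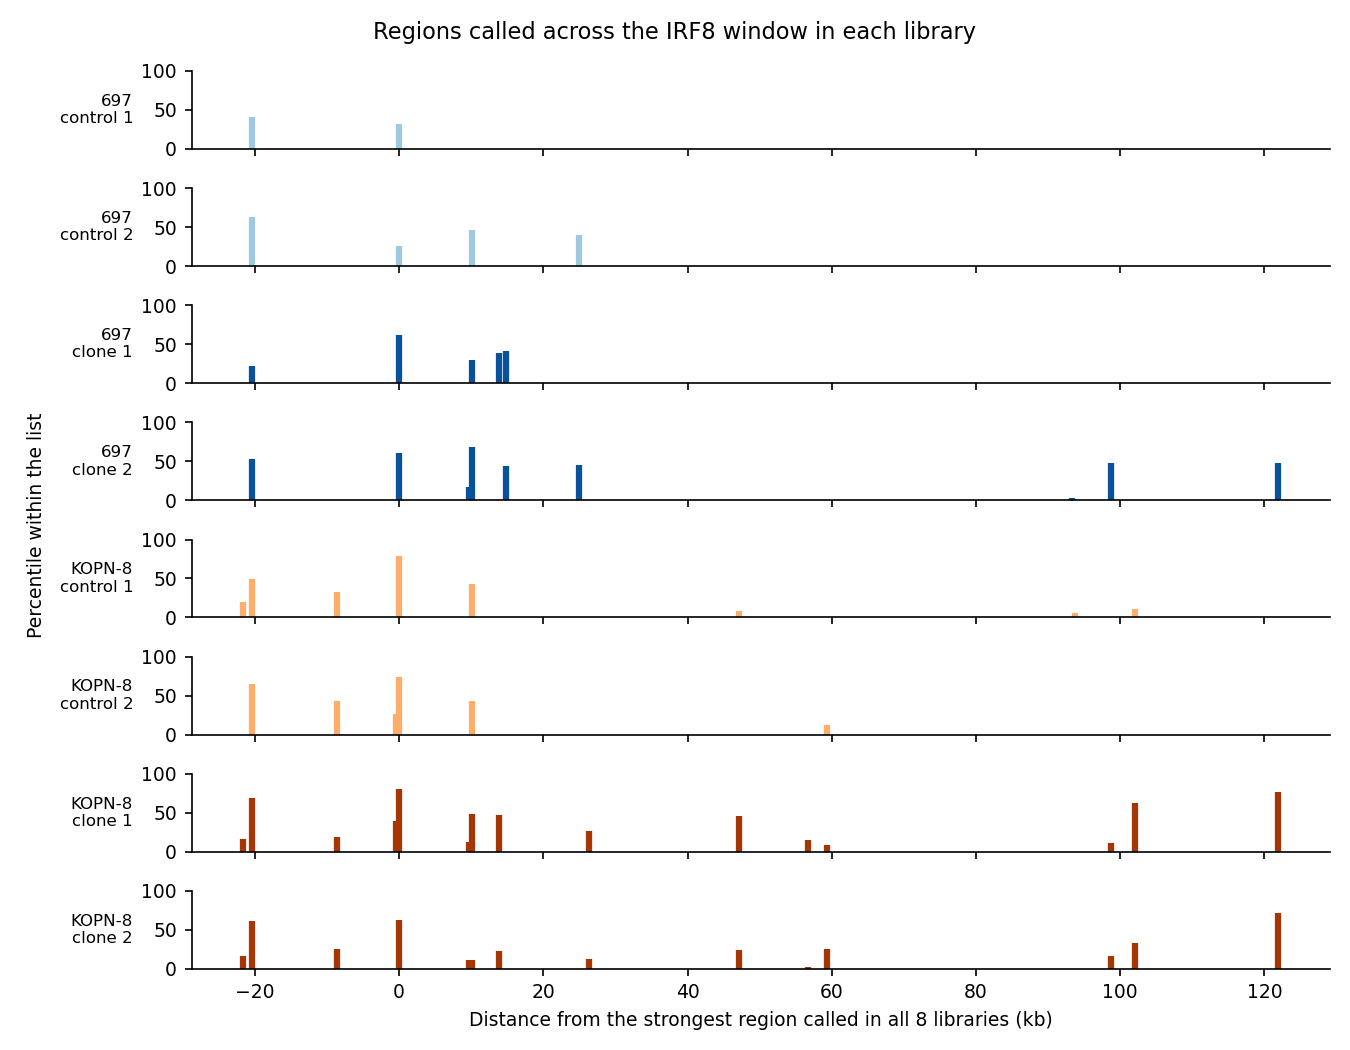
Regions called in the IRF8 window in each library, against the distance in kb between midpoints from the region starting at 85922370. Bar height is the percentile of the strongest peak within its list (0 to 100), and bar width has no meaning. Beyond 40 kb the 697 controls have no region, the KOPN-8 controls have 1 to 3 at percentiles up to 11.7, and both KOPN-8 clone libraries have 6, the last at 76.9 and 72.0.

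Regions called in 1 KOPN-8 control and both libraries of its clone did not all rank the same way, with those starting at 86024409 and 85969341 higher in both clone libraries. The region from 86024409 to 86024744 stood at 10.8 in control 1, was not called in control 2 and stood at 63.0 and 32.7 in the clone. The region from 85969341 to 85970012 stood at 7.91 in control 1 and at 46.1 and 24.2 in the clone. The region from 85981725 to 85982059 stood at 11.7 in control 2, between the clone libraries at 8.41 and 26.0. The region from 85900834 to 85901147 stood at 19.5 in control 1, above both clone libraries at 15.9 and 16.2. Towards higher coordinates the KOPN-8 clone had regions that in its controls were weak or not called. The region from 85947387 to 85947632 was called in replicate 2 of each 697 arm, at 39.4 and 44.9, and in no KOPN-8 library.

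Peaks at IRF8 numbered 3 ± 1.41 in 697 controls, 7 ± 2.83 in 697 clone libraries, 7 ± 1.41 in the KOPN-8 controls and 15 ± 0 in the KOPN-8 clone (SD, n = 2 each). The clones exceeded the controls by 4 peaks in 697 and 8 in KOPN-8, or 6 on average, with 4 of 4 clone libraries above the controls of their line. This is the most extreme split of the libraries within lines (exact permutation, two-sided p = 0.0556, the smallest the design allows, adjusted p = 0.167 over the 3 loci), so the test could not pass 0.05. In the strongest 50% of each list the difference was 1.75 peaks (exact permutation, p = 0.111, adjusted p = 0.333). Covered bases were 475 and 1058 bp in 697 controls, 1569 and 2439 bp in 697 clone libraries, 2386 and 1836 bp in the KOPN-8 controls and 4524 and 4550 bp in the KOPN-8 clone, with the same order and the same p. The gain in peaks was not shown to differ between the lines (difference of 4 peaks, exact permutation, p = 0.556, adjusted p = 0.834). Between lines, KOPN-8 had 11 ± 4.69 and 697 5 ± 2.94 peaks (SD, n = 4), a difference of 6 (exact permutation, p = 0.114, adjusted p = 0.171), with 4 peaks between the controls and 8 between the clones. The arms were pooled here, so these SDs and this p include the arm difference. Within each arm both KOPN-8 libraries had more peaks than both 697 libraries, where exact permutation of 2 against 2 allows no p below 0.333. In KOPN-8 list length did not follow the arms, since the clone lists held 67301 and 64667 peaks and the control lists 70430 and 63585. In 697 the clone lists, with 63012 and 76495 peaks, were longer than the control lists of the same number, with 57154 and 70099. Per 10000 peaks of the list, the IRF8 window took 2.23 and 2.32 in the KOPN-8 clone against 1.14 and 0.944 in its vector cells, and 0.793 and 1.18 in 697 clone libraries against 0.35 and 0.571.

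Over the 3 windows together, 8 of the 39 regions (20.5%) were called in all 8 libraries, close to the 20.4% of all regions. Regions called in all 4 libraries of 697 and none of KOPN-8 were 2 of 39 (5.13%), against 5.85% of all regions, and the reverse 1 of 39 (2.56%), against 7.30%. By locus, the regions called in at least 1 library of 697 and none of KOPN-8 were 3 of 10, 2 of 10 and 3 of 19 at SPI1, IRF4 and IRF8, or 20.5% of the 39 against 32.2% of all regions. Those called in at least 1 library of KOPN-8 and none of 697 were 0, 3 and 9, or 30.8% of the 39 against 28.3% of all regions, and 47.4% of those at IRF8. Of the 9 at IRF8, 8 were called by at least 1 library of the KOPN-8 clone, and the other, starting at 86016206, by control 1 alone.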

How the data were processed

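ATAC-seq was done on 8 libraries, 2 for each of 4 groups. The submitters' processing notes name Bowtie2, MACS2 and hg19. Versions, settings, duplicate handling and any shift of cut sites: not given in the sources used here. Each deposited list holds 1 library's peaks with 1 value, read as the authors' fold enrichment over background (a linear ratio). This value was used to rank peaks within a list and is printed for some regions. The printed folds entered no test, and with read depth unknown they are not levels that can be compared between libraries. Peaks are at least 200 bp wide.

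Groups follow the sample titles. Regions were merged over all 8 lists, or over the 4 lists of a line for gained and lost regions, where peaks shared at least 1 bp. Peak numbers were compared by exact two-sided permutation of libraries, between lines or between arms within lines, with Benjamini-Hochberg adjustment over 3 loci and a threshold of 0.05. The tests between lines pooled both arms of a line. Positions count from 1. Described regions are, per window, the 4 with the highest median percentile over the libraries that called them, those of 1 line only, those gained or lost, and further ones chosen after their values were seen. The windows, the motifs and the tests were chosen with earlier results of these data known. No hg19 annotation was used, so the planned lists of other pathway genes and marker genes were not analysed here. The merging and permutation code was tested on simulated data. Python 3.11.15, numpy 2.4.6 and pandas 2.3.3 were used.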

Additional observations from a re-analysis of the deposited data

How the results depend on the processing

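Read depth is unknown and each group has 2 libraries, so a region not called may be open below the caller's limit. No adjusted p passed 0.05 in the reported form or under any alternative, and for the arm differences none could. The higher number of peaks at IRF8 in the clones kept its direction under all 16 alternatives, at adjusted p from 0.167 to 0.375 (exact permutation), as did the line differences at all 3 loci under 15 each. Not all of these could reverse a direction. A replicate block changes only the permutation, and the midpoint rule gave the same 6 peaks at IRF8. Leaving out 1 library could not reverse the arm order at IRF8 or the line order at SPI1, since the libraries compared did not overlap there. Sizes moved. In the strongest 50% of each list the arm difference at IRF8 fell from 6 to 1.75 peaks, and the line differences were -0.75, 3 and 1.25 at SPI1, IRF4 and IRF8 against -3.25, 1.25 and 6. Windows widened by 50 kb gave line differences of 2.75 at IRF4 and 9.5 at IRF8, and the line difference at IRF4 was 0.5 with lists of equal length. Leaving out 1 library gave 0.667 (without KOPN-8 control 2) to 2 (without KOPN-8 clone 2) at IRF4. The arm difference at SPI1 turned to 0.75 in the strongest 50% of each list and to 204 bp in covered bases. That at IRF4 turned to 0.5 in the strongest 50%, 0.25 with windows widened by 50 kb, 468 bp in covered bases and 0.25 in merged regions called, an alternative added after seeing the data.

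In the strongest 50% of each list, 0 regions were called only in 697 and 2 only in KOPN-8, 1 was gained and 1 lost in the 697 clone, and 2 were gained in the KOPN-8 clone. With lists of equal length, 3 were called only in KOPN-8, 7 were gained in the KOPN-8 clone, and 1 was gained and 1 lost in the 697 clone. Windows widened by 50 kb gave 4 regions only in KOPN-8. Calls covering 50% of a region gave 1 only in 697 and 3 only in KOPN-8. Leaving out 1 library loosens these rules. The 697 clone then gained 2 to 7 regions, the most without 697 clone 1, and the KOPN-8 clone 7 to 9, with lost regions from 0 to 1 in 697 and from 0 to 2 in KOPN-8, and regions only in KOPN-8 from 1 to 4 (without KOPN-8 control 2). By replicate number, correlations of deviations over calls were 0.00295 in 697 and -0.00265 in KOPN-8. List length did follow the number, with replicate 2 longer in both arms of 697 and replicate 1 longer in both arms of KOPN-8. Whether replicate numbers pair the libraries was therefore not settled. With a replicate block the arm differences were -0.75, -0.75 and 6 peaks at SPI1, IRF4 and IRF8 (exact permutation, p = 0.25, 0.875 and 0.125), and no call changed.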

Other observations

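Of the 39 regions, 5 (12.8%) were called in 1 library alone, against 30.2% of all regions. They were 1 region at IRF4 in 697 control 2, 1 in KOPN-8 control 1 and 1 in KOPN-8 clone 1, and at IRF8 1 region in 697 clone 2 and 1 in KOPN-8 control 1. The IRF4 region from 422777 to 423121 was called in both 697 controls at percentiles 60.7 and 66.7 and in clone 2 alone of the 697 clone at 31.3. In 697 this order is the reverse of the IRF8 pattern. In KOPN-8 the arms were not ordered there, with controls at 87.3 and 62.9 and the clone at 80.0 and 73.8. The region was chosen after its values were seen.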
